A study of Saccharomyces cerevisiae with 6 samples.

Results

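Stress and quiescence regulators of budding yeast were followed as a set of 8 genes: MSN2, MSN4 and GIS1, which encode transcription factors, the kinase genes YAK1 and RIM15, and the protein kinase A subunit genes TPK2, TPK3 and BCY1. They were chosen by gene symbol in the probe annotation, each is represented by 1 probe, and all 8 had a value on all 6 arrays, out of 5560 named genes.

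The samples were Saccharomyces cerevisiae S288c, the reference laboratory strain, whose poly(A) RNA was compared on arrays of 2 dyes. A group of 2 arrays set MDN cultures with rapamycin (Cy5) against untreated MDN cultures (Cy3), and another 2 arrays set YPD cultures with rapamycin (Cy5) against untreated YPD cultures (Cy3), YPD being a standard rich medium. A single array set MDN (Cy5) against YPD (Cy3), and a single array set MDN (Cy5) against SCD (Cy3). MDN and SCD are given as abbreviations only, and none of the sources used here gives the rapamycin dose, the treatment time or the growth stage.

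In yeast, TORC1, the rapamycin-sensitive kinase complex, and protein kinase A both promote growth when nutrients are plentiful. Both keep the zinc finger factors Msn2 and Msn4 out of the nucleus, and both restrain Rim15, a kinase needed for entry into quiescence that acts on transcription through Msn2, Msn4 and Gis1. Protein kinase A consists of catalytic Tpk subunits held inactive by the regulatory subunit Bcy1 until cyclic AMP binds, and Yak1 is a kinase that opposes growth driven by protein kinase A. Much of this control acts on the proteins, through phosphorylation and localization, and the arrays measured transcripts alone.

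All values are log2 ratios of Cy5 over Cy3, so that 1 stands for 2-fold. A positive value is taken to mean more transcript with rapamycin, or more in MDN on the medium arrays. This direction follows the dyes in the labels and is likely, not stated; every direction below would turn over together if the ratio had been formed the other way. Each array had a value for between 5834 and 6121 of 6210 probes, with a median between -0.09 and 0.07. Across the 5488 genes and unnamed probes tested, replicate arrays correlated (r = 0.967 for the MDN pair, r = 0.954 for the YPD pair), a description across genes, which are not independent replicates. Errors after ± are standard errors from limma with n = 2 arrays per medium, and a gene passed if limma's p adjusted by Benjamini-Hochberg over all 5488 was under 0.05. Nothing says that the arrays of a medium came from separate cultures, so the spread behind the p-values is that of these arrays alone and could be technical. The treated sample was in Cy5 on every rapamycin array, and MDN was in Cy5 on both medium arrays. With no array of swapped dyes, an effect of dye on a gene cannot be told apart from one of rapamycin or medium. A ratio of bulk RNA does not tell apart fewer cells expressing a transcript from less transcript per cell.

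With rapamycin, MSN4, YAK1 and TPK2 were higher in both media, and MSN4 moved the furthest of the 8. In MDN, MSN4 rose 2.01-fold, YAK1 1.71-fold and TPK2 1.58-fold, and the other 5 members did not pass. In YPD, MSN4 rose 4.03-fold, YAK1 1.87-fold and TPK2 1.60-fold, TPK3 fell by 0.27 on the log2 scale and the other 4 did not pass. These counts must be read against a genome-wide response: 54.1% of all features tested passed in MDN (30.8% rose and 23.3% fell), and 66.3% passed in YPD (34.3% rose and 32.0% fell). The 3 of 8 members higher in each medium are near those shares, so the set as a whole did not stand out by its number of calls. The median over the 8 members was 0.23 in MDN and 0.18 in YPD, beside 0.06 and 0.01 over all features in the same order of media.

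**Figure D1:**
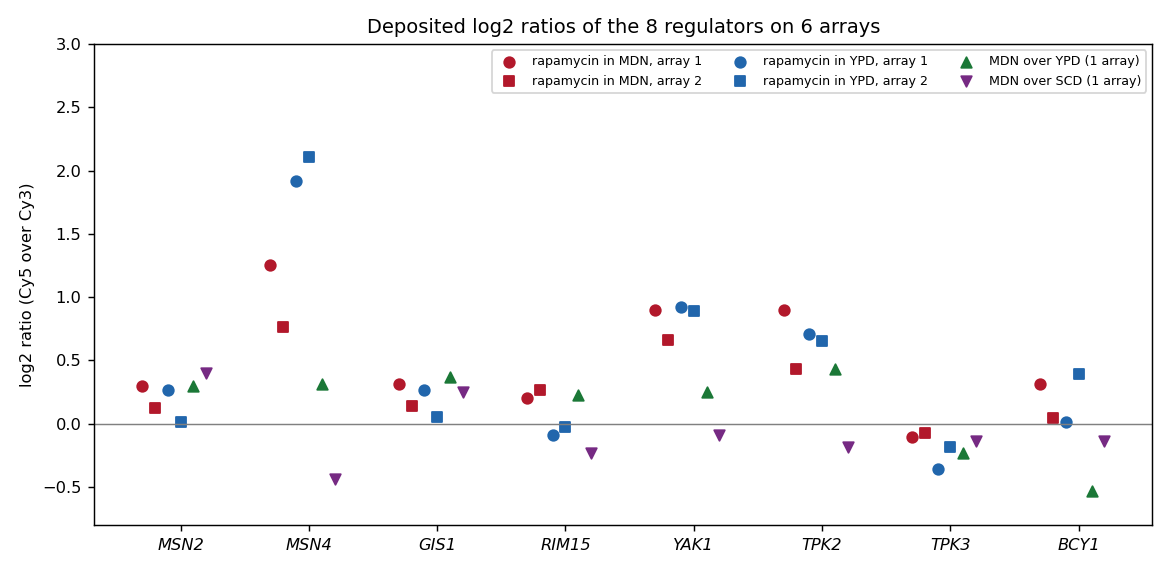
Deposited log2 ratios (y axis, Cy5 over Cy3) of the 8 regulators (x axis) on the 6 arrays, 1 point per array. MSN4 lies between 0.77 and 2.11 on the 4 rapamycin arrays, YAK1 and TPK2 lie above 0.4 on all 4, and on those 4 arrays the other members lie between -0.36 and 0.39.

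MSN4 encodes one of a pair of related zinc finger activators that bind stress response elements. Its log2 ratios were 1.25 and 0.77 with rapamycin in MDN, and 1.91 and 2.11 with rapamycin in YPD. All 4 arrays read above 0, and both MDN ratios were below both YPD ratios. The mean response was 1.01 ± 0.14 in MDN (adjusted p = 0.00361) and 2.01 ± 0.14 in YPD (adjusted p = 0.000256), by limma with n = 2 arrays each. Among 5488 features, it ranked 286 from the top in MDN and 156 from the top in YPD. The response in MDN was smaller than that in YPD by a difference of -1.003 ± 0.20 (95% interval -1.51 to -0.50, limma adjusted p = 0.0224, 4 arrays); 29.5% of all features passed for this difference. The difference passed in none of the limma fits that left out 1 array, where its adjusted p was between 0.120 and 0.166 and where no feature of the 5488 passed although 1495 to 2159 had an unadjusted p under 0.05. It was -0.53 with adjusted p = 0.0625 when all arrays were brought to the same scale. The increase in MDN also missed the threshold without MDN array 1 (0.77, adjusted p = 0.0708), whereas that in YPD passed with any 1 array left out.

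MSN2, the partner of MSN4, gave small ratios throughout. They were 0.30 and 0.12 with rapamycin in MDN, and 0.26 and 0.01 with rapamycin in YPD. All 4 were above 0, but the replicate arrays differed by 0.17 in MDN and 0.25 in YPD. The means were 0.21 ± 0.10 in MDN (limma adjusted p = 0.137) and 0.14 ± 0.10 in YPD (adjusted p = 0.277), with 95% intervals reaching from 0.97-fold to 1.39-fold and from 0.92-fold to 1.32-fold in the same order.

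GIS1 encodes a zinc finger factor that binds post-diauxic shift elements and works downstream of Rim15. Its ratios of 0.31 and 0.14 in MDN and 0.26 and 0.06 in YPD resembled those of MSN2 array by array. The means were 0.22 ± 0.10 in MDN (limma adjusted p = 0.107) and 0.16 ± 0.10 in YPD (adjusted p = 0.199), and neither passed.

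Set within each array against its partner, MSN4 exceeded MSN2 on all 4 rapamycin arrays. The log2 ratio of MSN4 minus that of MSN2 was 0.95 and 0.64 in MDN and 1.65 and 2.09 in YPD, means of 1.74-fold and 3.66-fold in the same order of media. On the array of MDN over YPD the pair differed by 0.01, and on that of MDN over SCD by -0.83, so the order of the pair was not the same in every comparison. This is a difference of responses and says nothing about which transcript was more abundant.

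YAK1, the kinase gene, responded alike in both media. It had ratios of 0.90 and 0.66 with rapamycin in MDN, and 0.92 and 0.89 with rapamycin in YPD. The groups overlap, and the arrays of YPD are the closest pair of values among the members that rose. The means were 0.78 ± 0.09 in MDN (limma adjusted p = 0.00231) and 0.90 ± 0.09 in YPD (adjusted p = 0.000891). The difference of MDN minus YPD was -0.13 ± 0.13 (adjusted p = 0.504), and its 95% interval spans 0.73-fold to 1.16-fold. Without MDN array 1 the increase in MDN missed the threshold (0.66, adjusted p = 0.0636); in YPD it passed with any 1 array left out.

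RIM15 encodes a kinase of the Greatwall family. Its ratios were 0.20 and 0.26 in MDN and -0.09 and -0.03 in YPD. Those in MDN both lay above 0 and above both of those in YPD, which were just below 0. The means were 0.23 ± 0.08 in MDN (limma adjusted p = 0.0562) and -0.06 ± 0.08 in YPD (adjusted p = 0.535). The difference of MDN minus YPD, 0.29 ± 0.11, did not pass either (adjusted p = 0.106), although its unadjusted p was 0.0463.

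**Figure D2:**
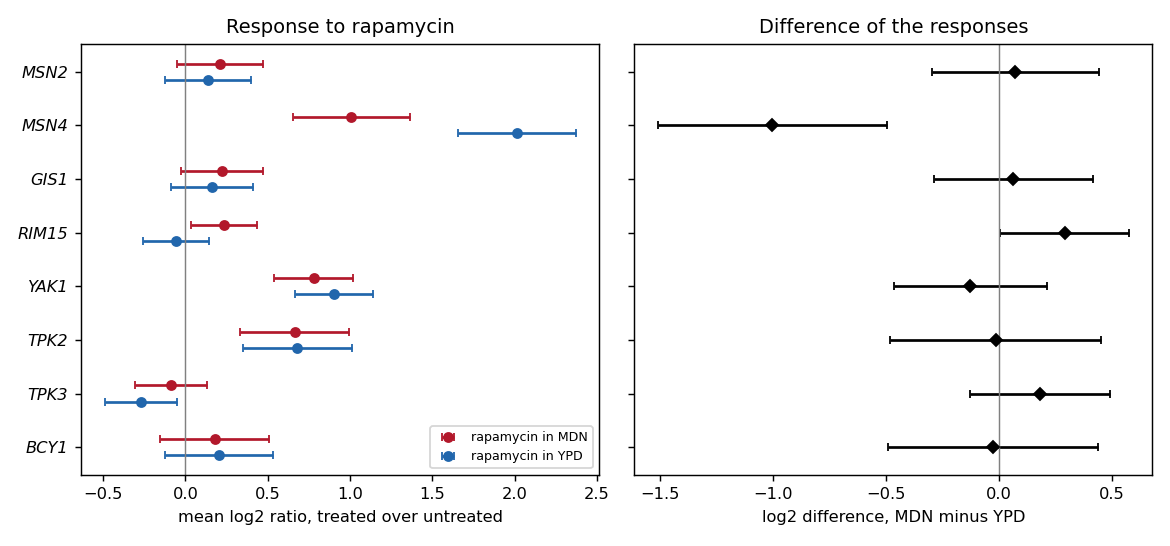
Left, mean log2 ratio of rapamycin-treated over untreated cells (x axis) for each regulator in MDN and in YPD, with 95% intervals from limma (n = 2 arrays each); right, the difference of the responses, MDN minus YPD, with its 95% interval. MSN4 is the only member that passed for the difference, at -1.003, and its interval does not reach 0; RIM15 at 0.29 has an interval just above 0 and did not pass after adjustment.

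Among the subunits of protein kinase A, TPK2 was the one that rose. TPK2 encodes a catalytic subunit, with ratios of 0.90 and 0.43 with rapamycin in MDN and 0.70 and 0.65 in YPD. The MDN ratios lie on either side of the YPD ratios. Mean responses were 0.66 ± 0.13 in MDN (limma adjusted p = 0.0103) and 0.68 ± 0.13 in YPD (adjusted p = 0.00730), and their difference was -0.01 with a 95% interval from 0.72-fold to 1.37-fold. These calls did not hold in every fit. In MDN, TPK2 was at 0.43 without MDN array 1 and missed the threshold. With only the 2 MDN arrays in the fit its mean was the same 0.66, and it missed the threshold (limma adjusted p = 0.0799). In YPD it was at 0.65 without YPD array 1 and at 0.70 without YPD array 2, and missed the threshold in both fits. There the spread came from the MDN arrays alone. With only the 2 YPD arrays in the fit, TPK2 passed in YPD (limma adjusted p = 0.0167).

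TPK3, which encodes another catalytic subunit, was the one member with a call downward. Its ratios were -0.10 and -0.07 in MDN and -0.36 and -0.18 in YPD, all 4 below 0. The mean was -0.09 ± 0.09 in MDN (limma adjusted p = 0.417), and in YPD TPK3 fell by 0.27 ± 0.09 (adjusted p = 0.0391), or 1.21-fold. That call was lost without YPD array 1, where the value was -0.18. It was also lost with only the 2 YPD arrays in the fit (limma adjusted p = 0.0976), and leaving out either MDN array gave that same fit. In all, 8 of the 14 alternatives lost the call. They count that fit more than once and include the fold rule, which a mean of this size cannot meet. The difference of MDN minus YPD, 0.18 ± 0.12, did not pass (adjusted p = 0.300).

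BCY1, the gene of the regulatory subunit, had ratios of 0.31 and 0.04 in MDN and 0.01 and 0.39 in YPD. Replicates differed by more than the mean in both media, and the YPD values lie on either side of the MDN values. The means of 0.18 ± 0.13 in MDN (limma adjusted p = 0.292) and 0.20 ± 0.13 in YPD (adjusted p = 0.216) did not pass.

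TPK2 exceeded TPK3 on all 4 rapamycin arrays, by 1 and 0.51 in MDN and by 1.06 and 0.84 in YPD on the log2 scale. TPK2 also exceeded BCY1 on all 4, by between 0.26 and 0.69. TPK2 and TPK3 encode similar proteins, and whether RNA of one reaches the probe of the other was not tested.

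**Figure D3:**
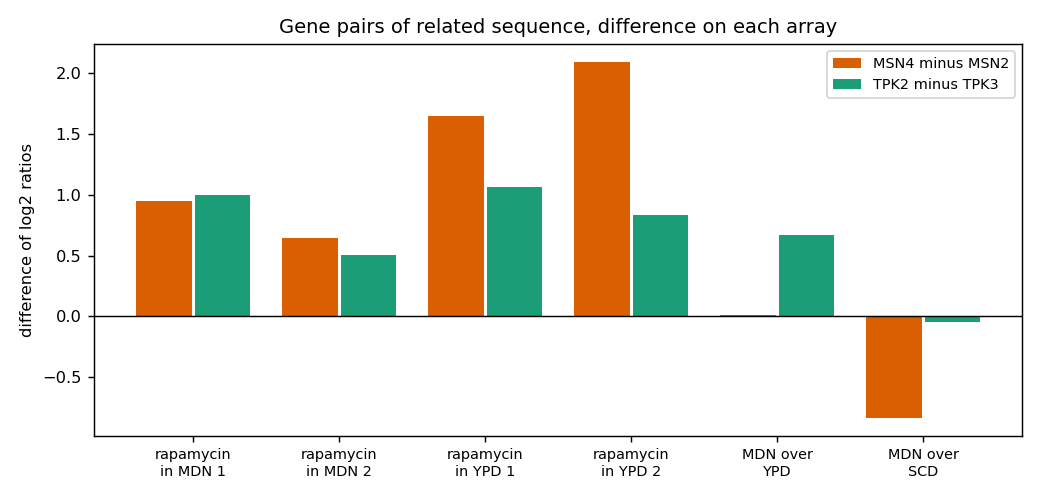
Difference of log2 ratios within each array (y axis) for MSN4 minus MSN2 and TPK2 minus TPK3, on the 6 arrays (x axis). Both differences are above 0 on the 4 rapamycin arrays, from 0.51 to 2.09, while on the array of MDN over SCD they are -0.83 for MSN4 minus MSN2 and -0.05 for TPK2 minus TPK3.

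Growth medium by itself was compared on 1 array for each pair of media, with no replicate and no test. No member reached an absolute log2 ratio of 1 on either medium array; 5.89% of genes did so for MDN over YPD and 3.37% for MDN over SCD. In MDN over YPD, BCY1 was the lowest member at -0.54 and TPK2 the highest at 0.43, followed by GIS1 at 0.37, MSN4 at 0.31, MSN2 at 0.30, YAK1 at 0.25 and RIM15 at 0.23, with TPK3 at -0.23. For BCY1, 22.8% of genes were at least as far from 0. In MDN over SCD, MSN2 stood highest at 0.40 and MSN4 lowest at -0.43, with GIS1 at 0.25, YAK1 at -0.09, TPK3 and BCY1 at -0.14, TPK2 at -0.18 and RIM15 at -0.23. The pair of related factors thus lay at opposite ends of the 8, and 21.9% and 19.8% of genes were at least as far from 0 as MSN2 and MSN4.

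The medium arrays share MDN, so their difference estimates SCD over YPD. No member differed by at least 1, beside 4.89% of genes. MSN4 had the highest value of the members, 0.74 or 1.68-fold, which 10.7% of genes equalled or exceeded in distance from 0. TPK2 followed at 0.62, RIM15 at 0.46 and YAK1 at 0.34, while MSN2 was at -0.10. The members that rose with rapamycin in both media, MSN4, YAK1 and TPK2, were also above 0 in MDN over YPD and below 0 in MDN over SCD. RIM15, which rose in neither medium, had the same signs. A value above 0 in SCD over YPD then follows by arithmetic and adds nothing. In MDN over SCD the median over all genes was -0.09, and TPK3 and BCY1 were below 0 as well. No test can be made of these signs from single arrays.

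Likeness was measured as the Euclidean distance between the 6 log2 ratios of a gene and those of a member, over 4876 named genes with all 6 values. For MSN2 the nearest gene was GIS1, and for GIS1 it was MSN2, at a distance of 0.17, beside a median distance of 1.28 from MSN2 over all genes. MIG1, a glucose repressor, was the next nearest to MSN2 at 0.29 and GIC1, a Cdc42 effector, to GIS1 at 0.29. For MSN4 the nearest were AIM19 and COX5B, an isoform of a cytochrome c oxidase subunit, each at 0.45. The median distance from MSN4 over all genes was 3.30. Distances grow with the size of the ratios, so those of MSN4 and MSN2 cannot be compared directly. COX5B read 1.04 and 1.08 with rapamycin in MDN and 1.99 and 2.01 in YPD, much as MSN4 did. YAK1 was nearest to RCN2 (0.20) and YMR027W (0.21), and TPK2 to TPS1, the trehalose-6-phosphate synthase gene (0.18), and YBR138C (0.20). RIM15 was nearest to SRC1 (0.19) and to the septin gene SHS1 (0.20), TPK3 to RSM7 and MRK1 (0.17 each), and BCY1 to ADH7 (0.16) and APC4 (0.26). For members near 0 on every array, such neighbours share little more than small ratios and the same arrays.

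Genes next to the members on the chromosome were also read, by RefSeq gene order in the R64 assembly; these neighbours were chosen after values had been seen. YKL063C, on one side of MSN4, did not pass with rapamycin in MDN (0.13, limma adjusted p = 0.267) or in YPD (-0.15, adjusted p = 0.199). BLI1, on the other side, had no value on MDN array 1 and was not tested. It read 0.58 on MDN array 2 and 0.52 and 0.14 in YPD, all above 0 as for MSN4. The neighbours of YAK1 were not tested, and those of MSN2, GIS1, RIM15 and TPK3 are not given here. Next to TPK2, HRR25 was at 0.13 in MDN and rose by 0.42 in YPD (adjusted p = 0.0373), as TPK2 did, and AFT2 was at -0.06 in MDN and fell by 0.39 in YPD (adjusted p = 0.0371). CAP2, beside BCY1, was at 0.20 in MDN (adjusted p = 0.256) and rose by 1.79 in YPD (adjusted p = 0.000330), unlike BCY1.

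Genes upstream in the Ras and cyclic AMP branch moved in both directions, with PDE1 the highest. Of 15 tested genes, 4 rose and 3 fell in MDN, beside 30.8% and 23.3% of all features, and 4 rose and 7 fell in YPD, beside 34.3% and 32.0%, with list medians of -0.09 and -0.05, beside 0.06 and 0.01 over all features. PDE1, a cyclic AMP phosphodiesterase, rose by 1.08 ± 0.08 in MDN (limma adjusted p = 0.000566) and by 2.01 ± 0.08 in YPD (adjusted p = 5.57e-05), and its difference of -0.94 ± 0.11 passed (adjusted p = 0.00776). PDE1 thus had nearly the values of MSN4 in both media. IRA2, a GTPase-activating protein for Ras, fell by 0.69 ± 0.13 in MDN and by 1.01 ± 0.13 in YPD. CDC25, the Ras exchange factor, fell by 0.73 ± 0.21 in MDN and by 0.66 ± 0.21 in YPD. SRV2, a protein associated with adenylate cyclase, rose by 0.84 ± 0.09 in YPD and did not pass in MDN, at 0.26. Of the MDN calls, that of PDE1 passed without MDN array 1 or MDN array 2, and those of IRA2 and CDC25 passed in neither fit (adjusted p between 0.106 and 0.350); 1 list member rose and none fell in either fit. Without YPD array 1, 3 rose and 2 fell in YPD.

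Around RIM15, genes of its inhibitory kinases and of its phosphatase branch moved in both directions. Of 12 tested genes, 4 rose and 2 fell in MDN, and 4 rose and 3 fell in YPD, with list medians of 0.22 and 0.12. Of all features, 30.8% rose and 23.3% fell in MDN, and 34.3% rose and 32.0% fell in YPD, so the list did not stand out by its number of calls. SCH9, a TORC1 substrate kinase that restrains Rim15, rose by 0.48 ± 0.09 in MDN (limma adjusted p = 0.00814) and fell by 0.75 ± 0.09 in YPD (adjusted p = 0.00129), and this difference of 1.23 ± 0.12 passed (adjusted p = 0.00464). Its ratios of 0.55 and 0.41 in MDN and -0.81 and -0.69 in YPD do not overlap. PHO85, a cyclin-dependent kinase, rose by 0.93 ± 0.08 in MDN and 0.83 ± 0.08 in YPD. TAP42, a TORC1-regulated phosphatase partner, rose by 0.69 ± 0.10 in MDN and by 0.46 ± 0.10 in YPD. PPH21, a catalytic subunit of protein phosphatase 2A, fell by 0.77 ± 0.13 in MDN and was at 0.09 in YPD (adjusted p = 0.593), and SIT4, a related phosphatase, fell by 0.65 ± 0.09 in YPD. No gene of this list passed in MDN without MDN array 1 or MDN array 2 (limma; 6 and 4 had an unadjusted p under 0.05). Without YPD array 1 or YPD array 2, 1 rose in YPD, and 1 or 2 fell; SIT4 was lost without YPD array 1 (adjusted p = 0.0513).

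Regulators and partners of Msn2 and Msn4 had mean ratios under 2-fold throughout. Of 12 tested, 3 rose and 2 fell in MDN and 2 rose and 3 fell in YPD, with all means between -0.52 and 0.68. The 5 called in each medium stand beside 54.1% of all features in MDN and 66.3% in YPD. BMH2, a 14-3-3 protein, rose by 0.58 ± 0.09 in MDN and 0.68 ± 0.09 in YPD, and SNF1, the AMP-activated kinase homologue, fell by 0.36 ± 0.08 in MDN and by 0.52 ± 0.08 in YPD. HSF1, the heat shock factor, rose by 0.34 ± 0.10 in MDN (limma adjusted p = 0.0370), and PSR1, a plasma membrane phosphatase, fell by 0.43 ± 0.08 in YPD. No gene of this list passed in MDN without MDN array 1 or MDN array 2 (limma; 1 and 2 had an unadjusted p under 0.05), and 1 rose and 1 fell without either YPD array, while BMH2, SNF1 and PSR1 passed in YPD with any 1 array left out.

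Transcription factors and other regulators downstream of protein kinase A and Yak1 fell in YPD in most cases. Of 9 tested, 2 fell and none rose in MDN, and 7 fell and 1 rose in YPD, with list medians of -0.09 in MDN and -0.50 in YPD. Of all features, 23.3% fell in MDN and 32.0% fell in YPD. Without YPD array 1, 4 fell in YPD. ADR1, an activator of glucose-repressed genes, had by far the lowest values, -3.47 and -4.06 in MDN and -3.47 and -3.18 in YPD. PHD1, a factor of pseudohyphal growth, fell by 0.70 ± 0.10 in MDN and by 1.46 ± 0.10 in YPD, and SFL1, a repressor of flocculation genes, fell by 0.90 ± 0.08 in YPD. For the difference of MDN minus YPD, 5 of 9 passed as higher and 1 as lower, beside 14.9% and 14.6% of all features; at the same array scale the numbers were 2 and 2, and none passed with an array left out (limma; 5 or 6 of 9 had an unadjusted p under 0.05). Without MDN array 1 or MDN array 2, 1 gene of this list, ADR1, fell in MDN; PHD1 then had adjusted p = 0.0580 and 0.0788.

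Most listed targets of Msn2 and Msn4 rose in both media, on a list chosen with earlier results of these data known. Of 34 tested, 27 rose and 2, GPD1 and GSY1, fell in MDN, and 28 rose and none fell in YPD; the shares of all features were 30.8% and 23.3% in MDN and 34.3% and 32.0% in YPD. The list medians were 0.85 in MDN and 1.38 in YPD, beside 0.06 and 0.01 over all features. HSP26, a small heat shock protein, rose 7.40-fold in MDN and 5.18-fold in YPD. DCS2 rose by 2.00 ± 0.14 in MDN and 2.85 ± 0.14 in YPD. TFS1, an inhibitor of carboxypeptidase Y, rose by 1.64 ± 0.11 in MDN and 2.76 ± 0.11 in YPD. The aldehyde dehydrogenase gene ALD3 rose by 2.17 ± 0.14 in MDN and 2.11 ± 0.14 in YPD. MSC1 rose by 1.60 ± 0.23 in MDN and 2.75 ± 0.23 in YPD. Without MDN array 1 or MDN array 2, 7 or 14 of the 34 rose in MDN; without YPD array 1 or YPD array 2, 22 or 23 rose in YPD. DCS2 in MDN was lost without MDN array 1 (adjusted p = 0.0526).

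For the difference of MDN minus YPD, 13 of these 34 targets passed as lower and 2, SSA4 and UBI4, as higher, beside 14.6% and 14.9% of all features, and MSN4 itself was lower. TFS1 differed by -1.12 (limma adjusted p = 0.0101), DCS2 by -0.85 (adjusted p = 0.0333) and HSP12, a small membrane-associated stress protein, by -1.43 (adjusted p = 0.0362). At the same array scale 9 were lower and 3 higher, and with any 1 array left out none passed (limma; between 13 and 16 of 34 had an unadjusted p under 0.05).

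On the medium arrays, 13 of 36 targets were at least 2-fold higher in MDN over YPD and none lower, with a list median of 0.86, beside 3.93% and 1.96% of genes. None was at least 2-fold higher in MDN over SCD and 2 were lower, with a list median of -0.14, beside 2.39% and 0.983% of genes. HSP12 stood at 4.02 in MDN over YPD and 0.11 in MDN over SCD. With rapamycin HSP12 read 0.74 and 0.01 in MDN, which did not pass, and 2.19 and 1.43 in YPD, which passed (adjusted p = 0.00231) but not without YPD array 1 (adjusted p = 0.0847).

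**Figure D4:**
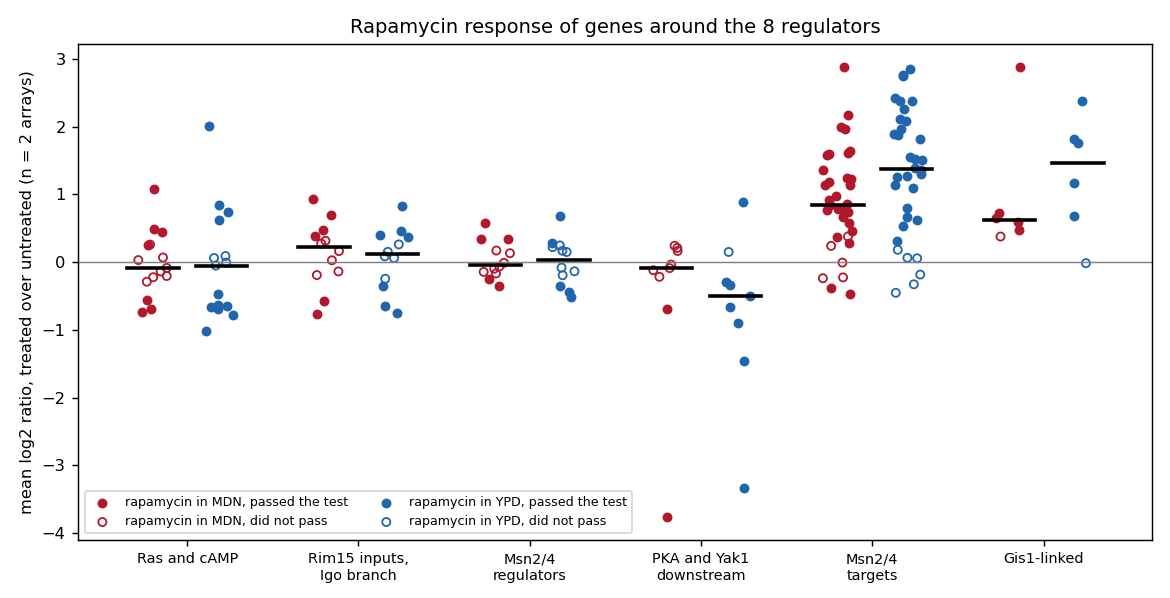
Mean log2 ratio of rapamycin-treated over untreated cells (y axis, n = 2 arrays) for the tested genes of 6 lists (x axis), 1 point per gene; filled points passed the limma test, open points did not, and the black bar is the list median. The Msn2/4 targets have medians of 0.85 in MDN and 1.38 in YPD, whereas ADR1 is the low point of the genes downstream of protein kinase A and Yak1.

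Genes linked to Gis1, either activated or repressed by it, numbered 6, of which HSP12 and HSP26 are also Msn2/4 targets. In each medium 5 of 6 rose and none fell, beside 30.8% of all features that rose in MDN and 34.3% in YPD; the exceptions were HSP12 in MDN (0.38, limma adjusted p = 0.246) and SSA3 in YPD (-0.02). GRE1, a hydrophilin, rose by 0.65 ± 0.09 in MDN, and PHR1, the photolyase gene, on which Gis1 acts as a repressor, rose by 0.72 ± 0.14 in MDN and 1.76 ± 0.14 in YPD. The activated gene SSA3 and the repressed genes DPP1 and PHR1 all rose in MDN. In YPD, DPP1 and PHR1 rose and SSA3 did not pass. Whether these directions depend on Gis1 was not tested. Without MDN array 1 or MDN array 2, 1 of 6 rose in MDN, HSP26 in both fits. GIS1 itself did not pass in either medium, as given above.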

How the data were processed

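Poly(A) RNA of yeast was measured on 6 arrays of 2 dyes, per the labels. The values are log2 ratios as deposited by the authors: raised to the power of 2, 100% are whole multiples of 0.01 (tolerance 0.0001). Scale was found from the values. Direction is taken as Cy5 over Cy3 and stays likely. None of the sources used here gives background correction, normalization or spot filters. Array number, not read depth, limits precision. Of 6210 probes, 5595 had 1 symbol in the platform annotation and 615 had no symbol; RefSeq gene numbers and symbols matched for 5595, and 34 genes with several probes were averaged.

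One limma model (version 3.58.1, R 4.3.3, lmFit and eBayes) covered the 4 rapamycin arrays (2 residual and 3.00 prior degrees of freedom), with a mean per medium tested against 0 and against each other, two-sided, over the 5488 features with 4 values. Single medium arrays were not tested. The members and lists were chosen with earlier results of these data known, so they are not independent of them. Genes were named by rule: every member, the 2 nearest genes of each, and up to 3 called genes of each list and medium with the largest absolute mean; other genes named for small counts were chosen after their values were seen. On simulated data (50 genes per fold among 5488), limma recovered 44% of 1.5-fold and 90% of 2-fold changes in MDN, 54% and 86% in YPD, and 4% and 70% for the difference. Only 50 genes per fold were changed there, whereas 54.1% of features passed in MDN and 66.3% in YPD on the real arrays. The adjusted p depends on that share, so these percentages do not carry over. Recovery on the real arrays was not tested. Alternatives were median centring, equal scale, a looser filter on missing values, a robust prior, single probes, a replicate block, separate fits, floored ratios, a fold rule and each array left out. RefSeq gene order gave the chromosome neighbours, and no sequence or coordinate is printed. Figures were drawn with matplotlib 3.10.9.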

Additional observations from a re-analysis of the deposited data

Results flagged for a closer look

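Responses to rapamycin that differed between media by limma's test of the difference itself (adjusted p under 0.05, 4 arrays) are given as MDN minus YPD on the log2 scale. Among the 8 regulators this held for MSN4 at -1.003 (adjusted p = 0.0224). Among the related genes named by rule, the response was lower in MDN for HSP12 (-1.43), TFS1 (-1.12), PHR1 (-1.03), PDE1 (-0.94), PPH21 (-0.85), DCS2 (-0.85) and SRV2 (-0.58). It was higher in MDN for SCH9 (1.23), PHD1 (0.76), SFL1 (0.69) and SIT4 (0.51). Of the genes named for small counts, it was lower in MDN for GPD1 (-1.01) and DPP1 (-0.69) and higher in MDN for SSA4 (1.0003), UBI4 (0.73) and SSA3 (0.60). The test called 29.5% of all features, and none of them passed in any fit that left out 1 array.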

How the results depend on the processing

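Where 1 of the 2 arrays of a medium was left out, the lone array was assumed to vary like the other medium. Features called ranged from 540 to 2607 in MDN (2968 with all arrays), from 2388 to 2891 in YPD (3638), and were 0 for the difference (1620), with 1495 to 2159 at an unadjusted p under 0.05. Members called ranged from 0 to 3 in MDN (3), from 2 to 3 in YPD (4) and were 0 for the difference (1). The fold rule (absolute mean of at least 1, same sign on both arrays) called 764 features and 1 member in MDN, and 1232 features and 1 member in YPD. At equal array scale 0 members passed for the difference (limma; 1 at an unadjusted p under 0.05). Some differences of MDN minus YPD that did not pass changed sign: at equal scale YAK1 was 0.044 and TPK2 0.092, and with 1 array left out MSN2 ranged from -0.052 to 0.20, GIS1 from -0.039 to 0.17, TPK2 from -0.24 to 0.22 and BCY1 from -0.21 to 0.16. PPH21 in YPD, not called, ranged from -0.10 to 0.28. The replicate block called 2709 features and 3 members in MDN, 3417 and 3 in YPD, where TPK3 was lost (adjusted p = 0.0644), and 1185 and 1 for the difference; nothing in the labels pairs same-numbered arrays, whose deviations correlated with r = -0.10 across genes. The crossed block, added after seeing the data, called 2830, 3532 and 1387. In all, 285 of 320 recomputed member responses kept their direction and side of the threshold, 25 lost their call and 10 changed sign. Some of the 320 could not differ or repeat each other, so the total does not measure robustness. Each member has 1 probe, so testing single probes left its values unchanged. For MDN, leaving out either YPD array gave the same fit as the separate MDN fit, and likewise for YPD. Responses that were not called count as kept where they stayed so. Equal scale moved 15 medium values by more than the replicate SD and 9 by less; the causes were not tested.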
